A study of Mus musculus with 8 samples.

Results

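Aminoacyl-tRNA synthetases join each amino acid to its tRNA, and 36 of their genes were taken by symbol from a table of 16096 mouse genes. Of these, 20 encode enzymes of the cytosol and 16 encode enzymes of mitochondria, which carry symbols ending in 2. All 36 symbols were present in the table and all 36 passed the filter on low counts. The members come from a given list of symbols. RNA came from the peripheral retina of C57BL/6 embryos at embryonic day 16.5, in 4 libraries of genotype Pax6alpha-Cre:Ezh2fl/null and 4 libraries of genotype Pax6alpha-Cre:Ezh2fl/+. Both groups carry the Pax6alpha-Cre transgene, which is active in the peripheral retina, and a floxed allele of Ezh2, which encodes the catalytic subunit of Polycomb repressive complex 2. The second allele is null in Ezh2fl/null embryos and wild type in Ezh2fl/+ embryos, so Cre would leave no working allele in Ezh2fl/null cells and a wild-type allele in Ezh2fl/+ cells. Cells that Cre does not reach keep the floxed allele in both groups. The comparison asks which transcripts differ between these genotypes. No label ties a sample to an embryo or litter, and the p-values reflect only how far these samples spread, which may be technical.

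Each synthetase recognises 1 amino acid and the tRNAs that carry it, and the charged tRNAs then supply ribosomes. Cytosolic and mitochondrial ribosomes are served mostly by separate nuclear genes, but Gars and Kars each encode both forms, and in mitochondria glutaminyl-tRNA is made by a different route. The enzymes fall into class I and class II by the fold of the catalytic domain. A subset of the cytosolic enzymes binds scaffold proteins in the multi-tRNA synthetase complex. Many cytosolic synthetase genes are known targets of ATF4, a transcription factor that is translated more when the initiation factor eIF2alpha is phosphorylated, as happens when amino acids run short. ATF4 binds with C/EBP partners to composite elements with the core letters TGATGNAA.

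Total counts ran from 13994825 in Ezh2fl/+ replicate 1 to 18391647 in Ezh2fl/null replicate 1. Ezh2 itself stood at 276, 251, 255 and 220 CPM (counts scaled to a common library size after TMM normalization) in Ezh2fl/null replicates 1 to 4, and at 235, 230, 197 and 207 CPM in Ezh2fl/+ replicates 1 to 4. Whole-gene counts of Ezh2 were therefore not lower in the Ezh2fl/null libraries, with a log2 fold change of 0.21 and an adjusted p of 0.0701 (edgeR quasi-likelihood test, Benjamini-Hochberg). They sum all exons, so they do not check a deletion within the gene, and directions below are those of the libraries labelled Ezh2fl/null. By Xist and 4 Y-linked genes, Ezh2fl/null replicates 2 and 3 were female and the other 6 libraries male. No Ezh2fl/+ library was female, so a fit with embryo sex as a covariate compares the genotypes through the male libraries. Summed retinal markers (7 of 7 in the table, among them Pax6, Rax and Lhx2) ran from 1705 to 1888 CPM in Ezh2fl/null and from 1875 to 2031 CPM in Ezh2fl/+ libraries. Of these 7, 6 had log2 fold changes below 0, the lowest at -0.33. The number called lower was 1 (3.46% of all genes), and 3 lay below in every Ezh2fl/null library (6.21% of all genes). Of 4 endothelial markers, Kdr was lower (281 CPM in Ezh2fl/null and 332 CPM in Ezh2fl/+ libraries, log2 -0.24). Pecam1 was at 0.597 and 0.524 CPM in the same libraries and not called, and Cdh5 had 2 to 16 counts per library and was not tested. Summed microglial markers ran from 27.9 to 33.1 CPM in Ezh2fl/null and from 22.2 to 27.6 CPM in Ezh2fl/+ libraries, with Cx3cr1 alone of 4 called (higher, log2 0.54). Summed pigment epithelial, lens, erythroid and mesenchymal markers overlapped between the groups, and none of these genes was called. All 4 mesenchymal markers had log2 fold changes above 0, from 0.17 to 0.72. In the pigment epithelial and in the erythroid list, 4 of 5 tested markers were below 0. The part of these markers in the results below was not tested, and in such bulk samples fewer cells of a type and less RNA per cell cannot be told apart.

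Transcripts of 7 of the 20 cytosolic enzymes were lower in Ezh2fl/null retina and none was higher, while none of the 16 mitochondrial enzymes was called in either direction. The 7 were Iars, Yars, Mars, Nars, Cars, Aars and Vars, which charge tRNAs with isoleucine, tyrosine, methionine, asparagine, cysteine, alanine and valine. The reductions were small, from 10.9% for Aars to 17.2% for Cars. A call means a Benjamini-Hochberg adjusted p under 0.05 over the 15014 genes tested with edgeR, of which 8.35% were called higher, 3.46% lower and 11.8% in either direction. The cytosolic share called lower was 35%. Of the cytosolic members, 17 had a log2 fold change below 0 and 3 above it, with a median of -0.10 and a range from -0.27 to 0.09. Over all genes tested the median log2 fold change was -0.01. In 9 cytosolic members every Ezh2fl/null library stood below every Ezh2fl/+ library, and in none above. Among all genes 6.21% lay wholly below and 10.1% wholly above.

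**Figure D1:**
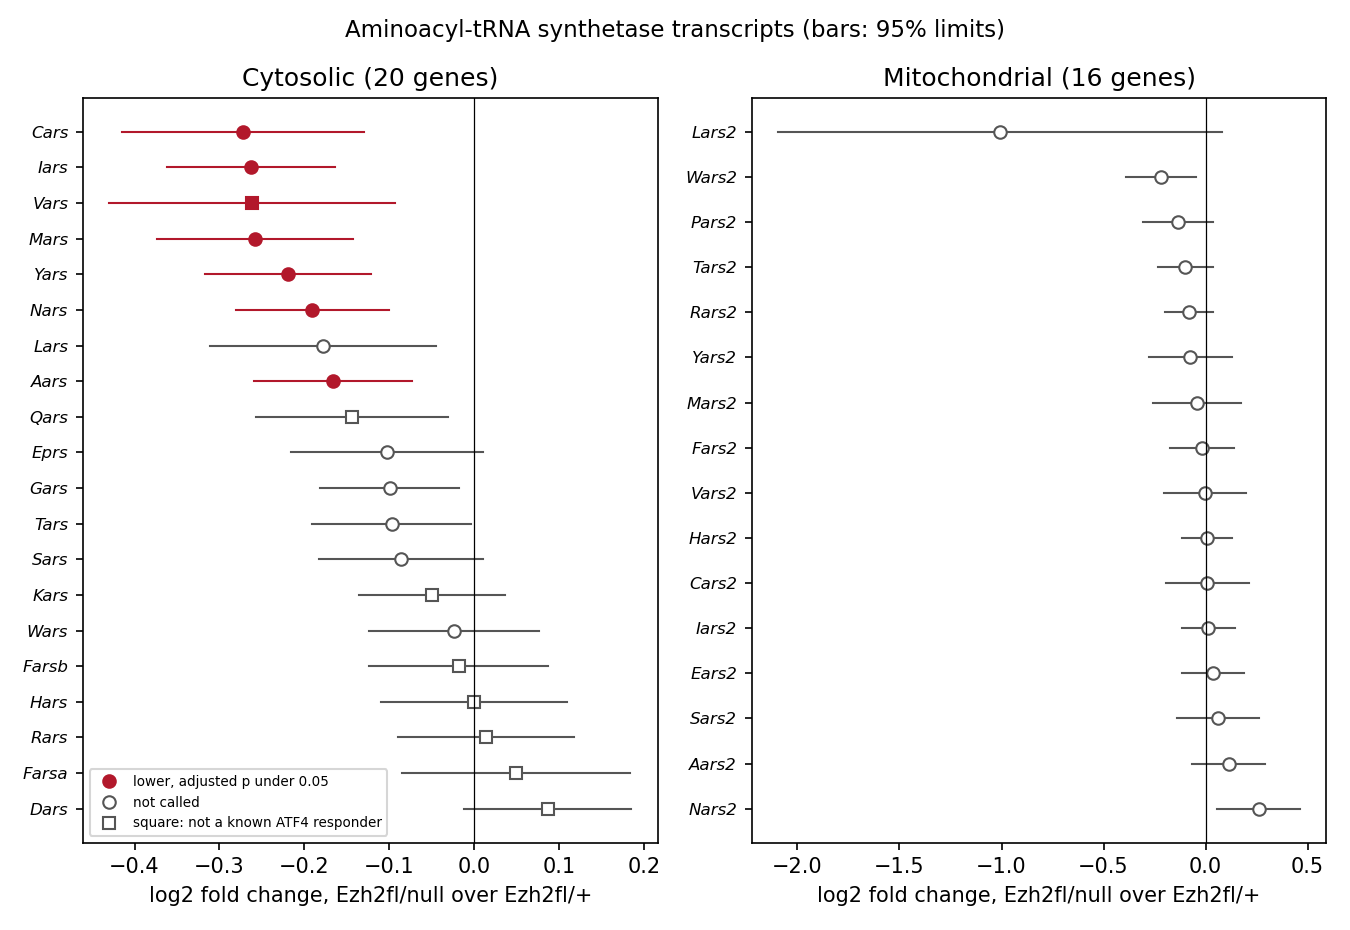
Log2 fold change of each synthetase transcript, Ezh2fl/null over Ezh2fl/+, with 95% limits (4 libraries a group; edgeR); filled red symbols were called lower, and squares mark cytosolic genes not listed as ATF4 responders. The 7 called genes are all cytosolic, between -0.27 and -0.17, and the widest limits belong to Lars2 at -1.01.

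The class I enzyme Iars, isoleucyl-tRNA synthetase of the multi-synthetase complex, had the smallest p of the members. Iars (ENSMUSG00000037851, mm10 chromosome 13, 49682100 to 49734267, plus strand) stood at 96.6, 98.9, 97.9 and 96.8 CPM in Ezh2fl/null replicates 1 to 4 and at 126, 116, 117 and 110 CPM in Ezh2fl/+ replicates 1 to 4. The groups did not overlap, and the Ezh2fl/null libraries lay closer together (97.5 ± 1.08 CPM) than the Ezh2fl/+ libraries (117 ± 6.37 CPM; SD, n = 4 each). For Iars this gave a log2 fold change of -0.26 (SE 0.05), with 95% limits of -0.36 and -0.16 and an adjusted p of 0.00134 in edgeR. Mars, methionyl-tRNA synthetase of the same complex, had 78.8, 78.7, 86.8 and 85.4 CPM in Ezh2fl/null libraries, against 93.8, 106, 96.2 and 98.1 CPM in Ezh2fl/+ libraries. The highest Ezh2fl/null library was below the lowest Ezh2fl/+ library, and the log2 fold change was -0.26 (SE 0.05; adjusted p = 0.00498, edgeR). Mars (mm10 chromosome 10, 127296221 to 127311786, minus strand) overlaps Ddit3 on the opposite strand. The sources used here do not say whether reads were counted by strand, so reads from the shared stretch cannot be assigned. Ddit3, the stress-induced factor CHOP, was itself lower at log2 -0.34.

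Yars, tyrosyl-tRNA synthetase, also class I, had 85.1, 83.5, 85.6 and 82.5 CPM in Ezh2fl/null libraries and 93.9, 97.7, 103 and 97.0 CPM in Ezh2fl/+ libraries. The spread within Ezh2fl/null was again narrow (SD 1.40 CPM against 3.99 CPM), the groups were apart, and the log2 fold change was -0.22 (SE 0.05; adjusted p = 0.00497, edgeR). Cars, cysteinyl-tRNA synthetase, gave 36.5, 35.2, 39.5 and 40.6 CPM in Ezh2fl/null and 43.6, 49.2, 42.4 and 48.0 CPM in Ezh2fl/+ libraries. It had the largest change of the 7 called genes at log2 -0.27 (SE 0.07; adjusted p = 0.0145, edgeR). Its groups did not overlap, but the gap was narrow, and the call was lost without Ezh2fl/+ replicate 2 (adjusted p = 0.0596) or replicate 4 (adjusted p = 0.0525).

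Nars and Aars are class II enzymes with higher counts. Nars, asparaginyl-tRNA synthetase, had 178, 167, 181 and 170 CPM in Ezh2fl/null libraries, against 196, 207, 196 and 197 CPM in Ezh2fl/+ libraries. The SD was 6.53 CPM in Ezh2fl/null and 5.22 CPM in Ezh2fl/+, the groups did not overlap, and the log2 fold change was -0.19 (SE 0.04; adjusted p = 0.00733, edgeR). Aars, alanyl-tRNA synthetase, had 202, 219, 216 and 217 CPM in Ezh2fl/null and 233, 237, 237 and 250 CPM in Ezh2fl/+ libraries. Ezh2fl/null replicate 1 was the lowest library and Ezh2fl/+ replicate 4 the highest. The log2 fold change was -0.17 (SE 0.04; adjusted p = 0.0213, edgeR); it was -0.14 (adjusted p = 0.0652) without Ezh2fl/null replicate 1 and -0.15 (adjusted p = 0.0897) without Ezh2fl/+ replicate 4. Aars lies on mm10 chromosome 8, 111033144 to 111057664, plus strand, and overlaps Exosc6 on that strand.

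Vars, valyl-tRNA synthetase, was the only called gene not listed here as an ATF4 responder and the least stable call. It stood at 81.7, 64.1, 82.1 and 90.4 CPM in Ezh2fl/null libraries, against 92.9, 97.9, 95.6 and 95.5 CPM in Ezh2fl/+ libraries. Replicate 2 was the lowest of the Ezh2fl/null libraries, and replicate 4 came close to the Ezh2fl/+ range without entering it. The log2 fold change was -0.26 (SE 0.08; adjusted p = 0.0434, edgeR), and without Ezh2fl/null replicate 2 it was -0.17 (adjusted p = 0.0560). Leaving out any of the 8 libraries except Ezh2fl/null replicate 4 ended the call, with adjusted p up to 0.100. In the 6 male libraries it was -0.15 (adjusted p = 0.193).

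**Figure D2:**
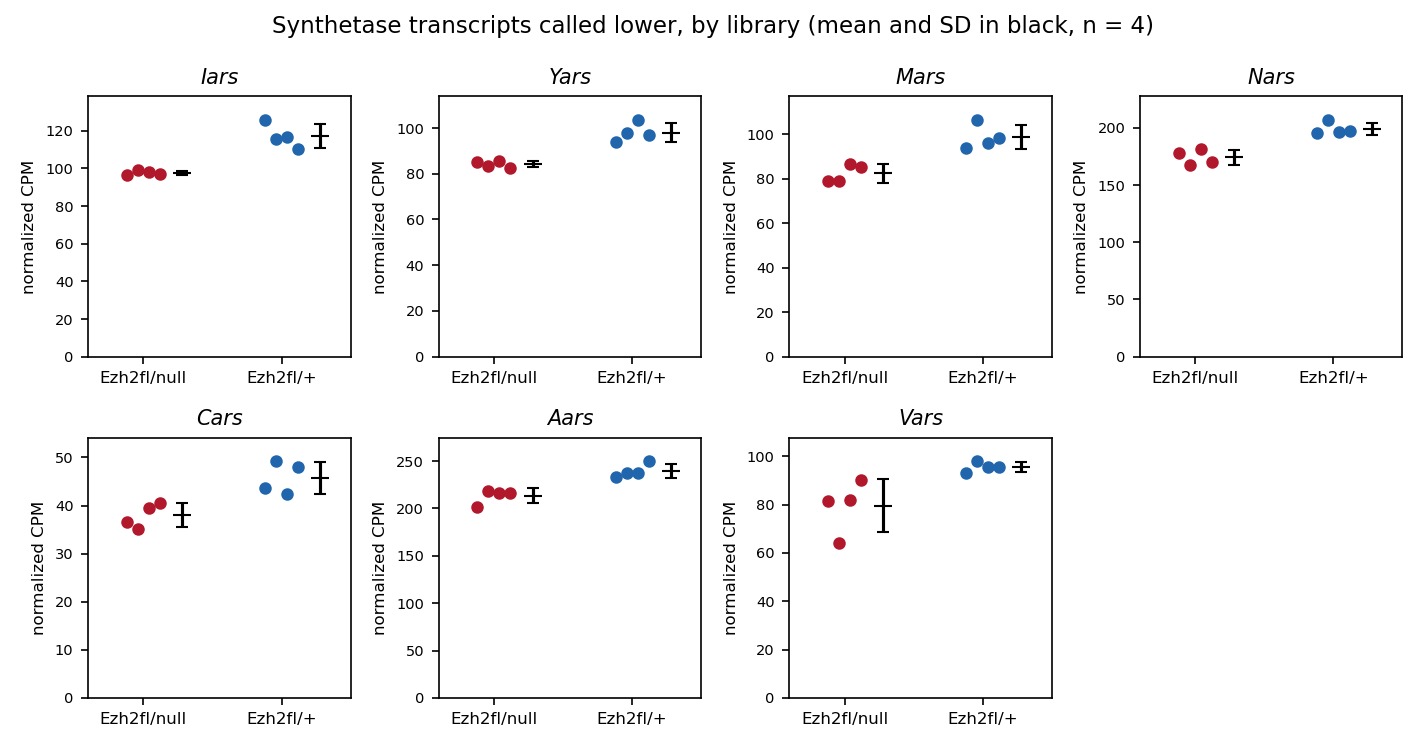
Normalized CPM of the 7 called synthetase transcripts in each library, with Ezh2fl/null left of Ezh2fl/+ and the mean and SD (n = 4) in black; axes start at 0. In each panel the 4 Ezh2fl/null libraries lie below the 4 Ezh2fl/+ libraries, by little in Vars (90.4 CPM at most against 92.9 CPM at least).

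Of the other 13 cytosolic transcripts, Gars and Qars were also lower in every Ezh2fl/null library without passing the adjusted threshold. Gars, the glycine enzyme, averaged 209 ± 3.59 CPM in Ezh2fl/null and 223 ± 2.73 CPM in Ezh2fl/+ libraries (log2 -0.10, adjusted p = 0.120, edgeR). Qars, the glutamine enzyme, averaged 96.5 ± 6.27 CPM in Ezh2fl/null and 107 ± 4.23 CPM in Ezh2fl/+ libraries (log2 -0.14, adjusted p = 0.101, edgeR). Lars, the leucine enzyme, averaged 115 ± 9.15 CPM in Ezh2fl/null and 130 ± 9.58 CPM in Ezh2fl/+ libraries and overlapped between the groups. Its log2 fold change of -0.18 (adjusted p = 0.0827, edgeR) was called without Ezh2fl/null replicate 2 (-0.23, adjusted p = 0.0221) or without Ezh2fl/+ replicate 1 (-0.22, adjusted p = 0.0485). Eprs, a fused enzyme for glutamate and proline, had a log2 fold change of -0.10, Tars (threonine) of -0.10, Sars (serine) of -0.09 and Kars (lysine) of -0.05. None of these 4 was called, with adjusted p between 0.189 and 0.516 in edgeR.

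The remaining cytosolic transcripts lay near 0. Wars, the tryptophan enzyme, averaged 90.8 ± 2.61 CPM in Ezh2fl/null and 92.3 ± 3.58 CPM in Ezh2fl/+ libraries, a log2 fold change of -0.02 with 95% limits of -0.12 and 0.08. Hars (histidine) averaged 87.7 CPM in both groups, with limits of -0.11 and 0.11. Farsa and Farsb, the alpha and beta subunits of the phenylalanine enzyme, had log2 fold changes of 0.05 and -0.02, and Rars (arginine) of 0.01. Dars (aspartate) had the highest value of the cytosolic members at 0.09, with 194 ± 11.2 CPM in Ezh2fl/null and 182 ± 2.83 CPM in Ezh2fl/+ libraries (adjusted p = 0.277, edgeR). For these 6 genes the limits leave room for changes of up to about 0.19 on the log2 scale, so a p above the threshold does not show equal levels.

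The 12 cytosolic genes listed as ATF4 responders (Aars, Cars, Eprs, Gars, Iars, Lars, Mars, Nars, Sars, Tars, Wars and Yars) held 6 of the 7 calls. This list was chosen with earlier results of these data known, so the division was not made independently of them. All 12 had log2 fold changes below 0, with a median of -0.17. Of the 12, 7 were lower in every Ezh2fl/null library, against 6.21% of all genes. The other 8 cytosolic genes (Dars, Farsa, Farsb, Hars, Kars, Qars, Rars and Vars) held 1 call, 5 values below 0 and a median of -0.01. Over all genes tested, 3.46% were called lower. By class, 5 of 10 cytosolic class I genes were called lower (median -0.20) and 2 of 10 class II genes (median -0.07). Of the 8 enzymes of the multi-synthetase complex, Iars and Mars were called lower (median -0.12), as were 5 of the 12 cytosolic genes outside it (median -0.10). These divisions overlap and hold few genes. They are descriptions, and no test of the difference between them was made.

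Promoter sequence was available for 27 of the 36 members in the RefSeq table for GRCm38.p6, which gives 250 bases before and 50 after each annotated start. The letters TGATGNAA, read on either strand (TTNCATCA on the other), were found in 5 of 13 cytosolic promoters (38.5%), those of Aars, Gars, Iars, Tars and Yars. They were in 0 of 14 mitochondrial promoters and in 3.97% of all 32851 promoters of the table. All 5 belong to the 8 listed ATF4 responders with an entry, and 3 of them (Aars, Iars and Yars) were called lower. Mars was called lower and has an entry without a match; Cars, Nars and Vars have no entry. The sequences that follow carry the match in capitals and are given because they set the called genes beside 2 that were not called. They are written 5′ to 3′ on the strand of the gene, with the first base of the start at 1 in the positions given. The Aars window (chr8:111033722-111033841, plus strand) has its match at -112, the Gars window (chr6:55037881-55038000, plus strand) at -30 and the Tars window (chr15:11399659-11399778, minus strand) at -15. The shorter stretches of Iars (chr13:49682126-49682155, plus strand, match at 8), Yars (chr4:129189895-129189924, plus strand, match at 4) and the second match of Aars (chr8:111033840-111033869, plus strand, match at 10) lie across or just after the start.
Aars, 120 bases before the start: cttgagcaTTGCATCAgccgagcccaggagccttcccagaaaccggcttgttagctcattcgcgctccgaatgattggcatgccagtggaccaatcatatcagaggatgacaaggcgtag
Gars, 120 bases before the start: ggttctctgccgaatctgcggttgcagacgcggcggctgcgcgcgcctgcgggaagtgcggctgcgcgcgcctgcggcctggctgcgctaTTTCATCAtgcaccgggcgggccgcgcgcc
Tars, 120 bases before the start: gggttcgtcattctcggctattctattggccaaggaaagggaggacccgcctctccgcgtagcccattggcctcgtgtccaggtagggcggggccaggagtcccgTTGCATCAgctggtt
Iars site: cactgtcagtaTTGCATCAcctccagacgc
Yars site: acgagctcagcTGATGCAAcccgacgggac
Aars second site: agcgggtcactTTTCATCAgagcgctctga
The core reads TTGCATCA in Aars, Iars and Tars and its reverse complement TGATGCAA in Yars, while Gars and the second Aars site read TTTCATCA. A match describes these letters and is not evidence of binding. The NRF1 motif, the palindrome bound by a factor of respiratory genes, was in 3 of 13 cytosolic promoters (Kars, Tars and Farsb) and 2 of 14 mitochondrial promoters (Iars2 and Mars2), against 4.60% of all promoters. The 2 motifs do not overlap within Tars, the only member with both.

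Mitochondrial synthetase transcripts showed no shared direction in the fit of all 8 libraries without covariates. Of the 16, 9 had log2 fold changes below 0 and 7 above it, with a median of -0.01, close to that of all genes. That split depended on the libraries compared, since 13 of the 16 were below 0 in the male libraries alone. Embryo sex as a covariate also gave 13, but it compares the genotypes through those same male libraries. In the fit without covariates none was called by edgeR (0 of 16, against 11.8% of all genes), and 2 had an unadjusted p under 0.05. DESeq2 on the same counts also called 0. These transcripts had lower counts than the cytosolic ones, 120 to 1170 per library without Lars2 against 506 to 6511. Their standard errors were larger, with a median of 0.08 on the log2 scale without Lars2 against 0.05 for the cytosolic genes. A change of the size seen in the cytosolic genes was therefore harder to call.

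The smallest p among mitochondrial members belonged to 2 genes with opposite signs. Nars2, which charges mitochondrial tRNA with asparagine, had 13.9, 13.9, 14.9 and 11.2 CPM in Ezh2fl/null libraries, against 11.8, 11.7, 11.3 and 10.3 CPM in Ezh2fl/+ libraries. Replicate 4 was the lowest library of each group, and the groups overlapped through it. The log2 fold change was 0.26 (SE 0.10; adjusted p = 0.101, edgeR), and without Ezh2fl/null replicate 4 it was 0.34 with an adjusted p of 0.0168. Wars2, the tryptophan enzyme, had 12.6, 14.2, 13.6 and 14.3 CPM in Ezh2fl/null and 14.8, 17.2, 16.5 and 15.04 CPM in Ezh2fl/+ libraries. It was the only mitochondrial member whose groups did not overlap, at log2 -0.22 (SE 0.08; adjusted p = 0.101, edgeR). That is 1 of 16, near the 6.21% of all genes that lay wholly below.

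Pars2, the mitochondrial proline enzyme, had 11.4, 12.1, 10.8 and 12.7 CPM in Ezh2fl/null libraries, against 12.95, 12.6, 13.6 and 12.6 CPM in Ezh2fl/+ libraries (log2 -0.14, adjusted p = 0.339, edgeR). Tars2, for threonine, had 24.2, 22.2, 23.4 and 23.7 CPM in Ezh2fl/null libraries, against 26.2, 25.0, 23.3 and 25.8 CPM in Ezh2fl/+ libraries (log2 -0.10, adjusted p = 0.375, edgeR). In both genes 1 library was enough to make the groups overlap. Rars2, for arginine, had 33.3, 36.8, 34.4 and 34.0 CPM in Ezh2fl/null and 36.8, 37.9, 34.5 and 37.1 CPM in Ezh2fl/+ libraries, a log2 fold change of -0.08 (adjusted p = 0.420, edgeR) with overlapping groups.

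Of the other mitochondrial members, Yars2 (tyrosine) had a log2 fold change of -0.08, Mars2 (methionine) of -0.04, Fars2 (phenylalanine) of -0.02 and Vars2 (valine) of -0.00. Hars2 (histidine), Cars2 (cysteine) and Iars2 (isoleucine) each stood at 0.01, Ears2 (glutamate) at 0.04, Sars2 (serine) at 0.06 and Aars2 (alanine) at 0.11. None was called, with adjusted p from 0.466 to 0.990 in edgeR. Their 95% limits reached as far as 0.29 on the log2 scale, for Aars2. Hars2 and Hars overlap on opposite strands, so without a known strand their counts may share reads.

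Of the 20 cytosolic genes, 13 have a mitochondrial counterpart for the same amino acid among the members, which allows a ratio within each library. In 9 of the 13 pairs the log2 fold change of the cytosolic gene was below that of the mitochondrial gene. The log2 ratio of Nars to Nars2 CPM averaged 3.70 ± 0.15 in Ezh2fl/null and 4.14 ± 0.09 in Ezh2fl/+ libraries (SD, n = 4 each), a difference of -0.44. That of Aars to Aars2 averaged 3.43 ± 0.12 against 3.71 ± 0.07, a difference of -0.28, and that of Iars to Iars2 averaged 0.56 ± 0.05 against 0.84 ± 0.16, also -0.28. For these 3 pairs every Ezh2fl/null ratio was below every Ezh2fl/+ ratio. Nars, Aars and Iars were themselves called lower, so these ratios are not separate from those calls. The share of non-overlapping ratios among other gene pairs was not computed. The ratio of Wars to Wars2 differed the other way, at 2.73 ± 0.05 against 2.54 ± 0.09, a difference of 0.19 with no overlap. For each of these 4 pairs the exact two-sided permutation test over samples gave p = 0.0286, the smallest that 4 against 4 libraries allow, and 0.0929 after Benjamini-Hochberg adjustment over the 13 pairs. The ratios of the other 9 pairs overlapped between the groups, and 0 of the 13 pairs passed the adjusted threshold. This comparison was added after the data were seen.

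Levels per length, on the deposited FPKM scale, differed far more between genes than between genotypes. In both groups Gars was the highest of the cytosolic transcripts, at 87.9 ± 2.26 FPKM in Ezh2fl/null and 92.7 ± 5.14 FPKM in Ezh2fl/+ libraries. Dars (77.8 and 72.1 FPKM), Kars (76.8 and 78.2 FPKM), Eprs (73.0 and 77.1 FPKM) and Nars (66.8 and 75.0 FPKM) followed, each given for Ezh2fl/null and then Ezh2fl/+. Cars was the lowest cytosolic transcript at 8.25 ± 0.72 FPKM in Ezh2fl/null and 9.81 ± 1.12 FPKM in Ezh2fl/+ libraries. The called genes other than Nars lay in the lower range, with Mars at 24.3 and 28.6 FPKM, Aars at 23.1 and 25.6 FPKM, Iars at 18.6 and 22.0 FPKM and Yars and Vars both at 14.3 FPKM in Ezh2fl/null against 16.3 and 16.9 FPKM in Ezh2fl/+. Mitochondrial transcripts other than Lars2 ran from 2.32 FPKM (Wars2) to 12.6 FPKM (Rars2) in Ezh2fl/null and from 2.65 FPKM to 13.1 FPKM for the same genes in Ezh2fl/+ libraries. The median over the 20 cytosolic genes was 31.7 FPKM in Ezh2fl/null and 33.0 FPKM in Ezh2fl/+, and over the 15 mitochondrial genes without Lars2 it was 5.23 and 5.11 FPKM. Within pairs, cytosolic exceeded mitochondrial FPKM in 12 of 13 pairs, all except Lars and Lars2, on the Ezh2fl/+ means.

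**Figure D3:**
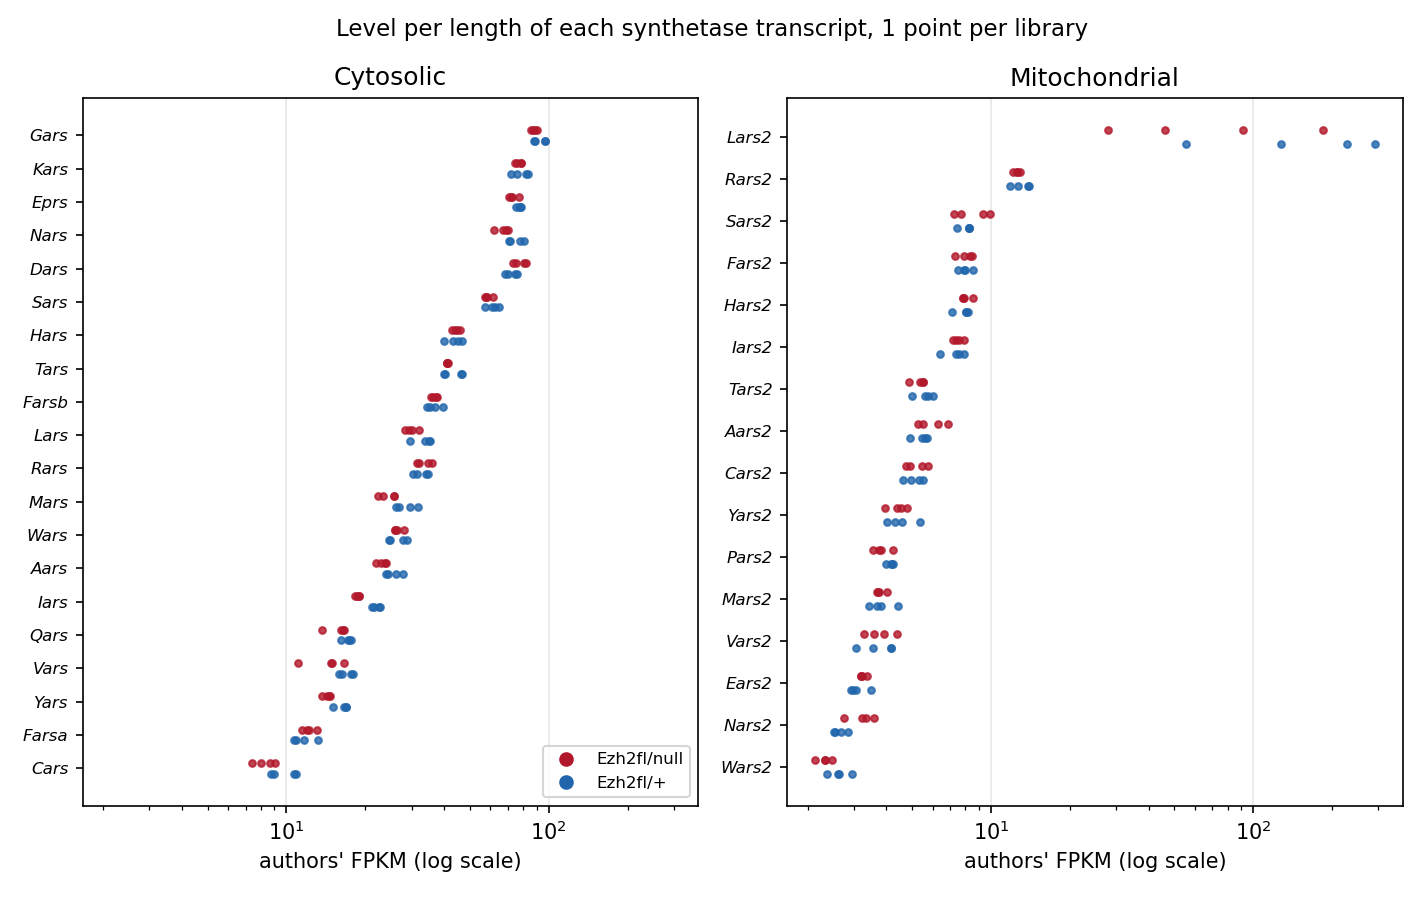
FPKM of each synthetase transcript in each library on a log scale, with cytosolic genes on the left and mitochondrial genes on the right, ordered by the Ezh2fl/+ mean; red points are Ezh2fl/null and blue points Ezh2fl/+. Cytosolic genes run from 8.25 FPKM (Cars, Ezh2fl/null mean) to 92.7 FPKM (Gars, Ezh2fl/+ mean), and Lars2 alone is spread widely among libraries of 1 group.

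Summed over the 20 cytosolic genes, FPKM reached 784 ± 13.6 in Ezh2fl/null and 820 ± 44.1 in Ezh2fl/+ libraries (SD, n = 4 each), a ratio of 0.955 with overlapping libraries. On the normalized CPM scale, which does not correct for length, the same sum ran from 2609 to 2690 CPM in Ezh2fl/null and from 2797 to 2898 CPM in Ezh2fl/+ libraries, without overlap and with a ratio of 0.929. Summed over the 16 mitochondrial genes, FPKM reached 174 ± 69.5 in Ezh2fl/null and 261 ± 104 in Ezh2fl/+ libraries. That gap came from Lars2, which made up 24.2% to 68.8% of the mitochondrial sum in Ezh2fl/null and 38.4% to 76.8% in Ezh2fl/+ libraries. Without Lars2 the sums were 85.8 ± 3.16 and 85.2 ± 3.95 FPKM, a ratio of 1.01.

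Lars2, the mitochondrial leucine enzyme (ENSMUSG00000035202, mm10 chromosome 9, 123366927 to 123462666, plus strand), had the lowest point estimate of the members and the least certain. It stood at 177, 739, 351 and 105 CPM in Ezh2fl/null replicates 1 to 4 and at 926, 1102, 521 and 208 CPM in Ezh2fl/+ replicates 1 to 4. The highest and lowest libraries differed severalfold within each genotype, and the groups overlapped. Its log2 fold change of -1.01 had an SE of 0.51, 95% limits of -2.10 and 0.08 and an adjusted p of 0.250 (edgeR), whereas a log2 ratio of -0.39 stands for Lars2 in the authors' deposited table. It was -1.71 (adjusted p = 0.0272) without Ezh2fl/null replicate 2 and -2.28 (adjusted p = 0.0106) in the 6 male libraries. Embryo sex as a covariate gave -2.28 (adjusted p = 0.0143, edgeR), but this compares the genotypes through the same male libraries and is not a separate result. With the replicate number as a block the log2 fold change of Lars2 was -1.11 (adjusted p = 0.00459, edgeR). Its call thus depended on the libraries compared and on the use of that block.

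Lars2 counts followed those of a few other transcripts from library to library. Among 13907 genes, chosen after the values were seen, Gm15564 was the most alike, with a Pearson r of 0.994 on log2 CPM over the 8 libraries, and Gm26924 next at 0.992. These r values describe likeness, share library and depth, and carry no p because the genes were picked for them. Scaled by total counts, Gm15564 had 91.7, 398, 163 and 59.8 CPM in Ezh2fl/null libraries, against 467, 689, 265 and 134 CPM in Ezh2fl/+ libraries. Gm26924 had 635, 3311, 1562 and 451 CPM in Ezh2fl/null libraries, against 3724, 5926, 1713 and 850 CPM in Ezh2fl/+ libraries. Scaled the same way, Lars2 puts the 8 libraries in the same order as both of these. The identifier listed as Gm26924 is named Gm42418 in GENCODE M21 (mm10 chromosome 17, 39846958 to 39848788, plus strand), where an annotated rRNA, CT010467.1, overlaps it on the opposite strand. The mitochondrial rRNA mt-Rnr2 was less alike (r = 0.364). Lars2 transcripts share a stretch of 72 bases at 98.6% identity with the Gm15564 transcript (BLASTN), so reads from that stretch could be placed at either gene. The part of such reads in the Lars2 counts was not tested.

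**Figure D4:**
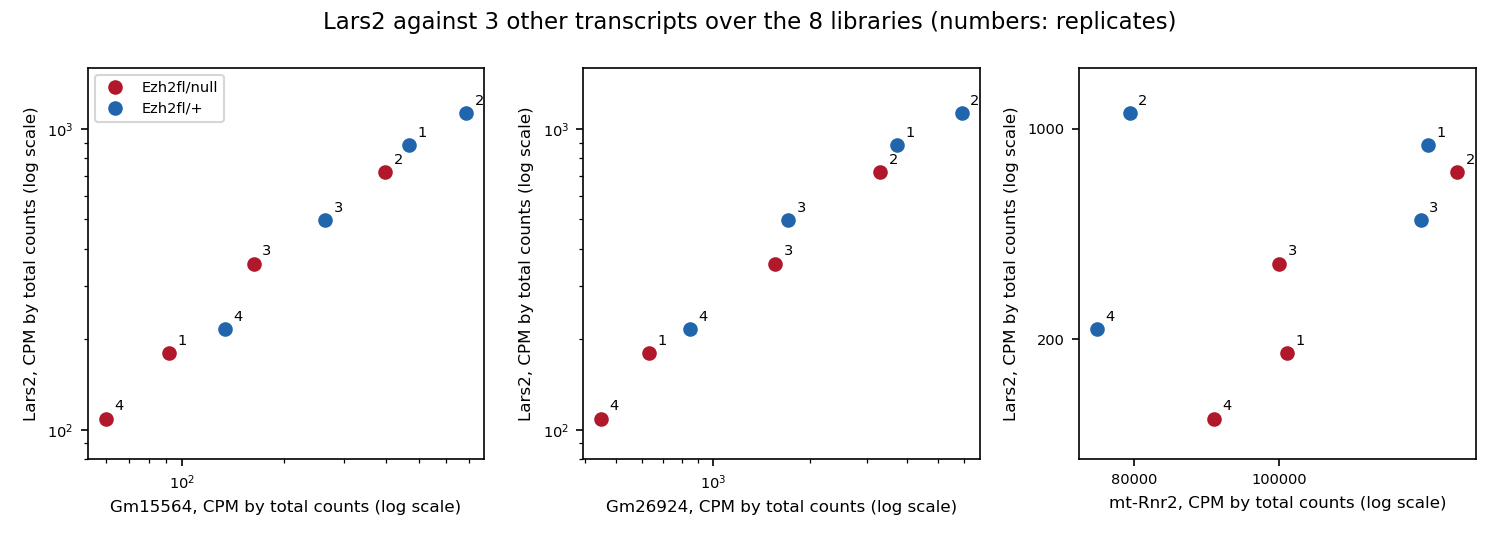
Lars2 CPM by total counts (vertical, log scale) against Gm15564, Gm26924 and mt-Rnr2 (horizontal, log scale) in the 8 libraries, numbered by replicate, with Ezh2fl/null in red and Ezh2fl/+ in blue. Libraries fall along a line for Gm15564 (r = 0.994) and Gm26924 (r = 0.992) and are scattered for mt-Rnr2 (r = 0.364).

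Genes that act with the synthetases were described in lists of 3 to 10 genes, in which the 11.8% of all genes called would give about 1 call or none, so counts of 0 say little about them. The 3 scaffold proteins of the multi-synthetase complex were not called (median log2 fold change -0.01), with Eef1e1 at 0.08, Aimp2 at -0.04 and Aimp1 at -0.01. Of 7 synthetases and relatives outside the members, which include Tarsl2 (a threonyl-tRNA synthetase paralogue) at 0.02 and the amidotransferase subunits Qrsl1 at -0.12 and Gatc at 0.05, 0 were called. Of 5 genes for editing and recycling of mischarged or stalled tRNA, 0 were called, and Dtd1, a deacylase of D-aminoacyl-tRNA, came closest. Dtd1 had 19.9, 20.7, 17.7 and 17.9 CPM in Ezh2fl/null libraries, against 16.2, 15.5, 15.01 and 17.3 CPM in Ezh2fl/+ libraries, without overlap (log2 0.25, adjusted p = 0.0542, edgeR). Prorsd1 and Ptrh2 had log2 fold changes of 0.06 and 0.03.

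For tRNA export and maturation, 0 of 10 genes were called. Xpot, the nuclear export receptor of tRNA, had 76.8, 74.1, 78.1 and 80.1 CPM in Ezh2fl/null libraries, against 83.0, 93.0, 80.8 and 92.1 CPM in Ezh2fl/+ libraries. These groups did not overlap but were close (log2 -0.18, adjusted p = 0.0588, edgeR). Tsen34, of the tRNA splicing endonuclease, and its partner kinase Clp1 also lay below in every Ezh2fl/null library, at log2 -0.15 and -0.14, and Trnt1, which adds the CCA end, stood at 0.04. The 5 cytosolic elongation factors all had values below 0 and a median of -0.09, with Eef1b2 at -0.13, Eef1g at -0.12, Eef2 at -0.09 and Eef1a1 at -0.08, and 0 were called. Of 9 mitochondrial translation factors 0 were called (median -0.02), with Mtif2 at -0.11, Mrrf at -0.08, Gfm2 at 0.05 and Tsfm at -0.06. The 4 kinases of eIF2alpha were not called, with Eif2ak4, the sensor of uncharged tRNA also known as GCN2, at 0.11, Eif2ak2 at 0.16, Eif2ak3 at 0.08 and Eif2ak1 at -0.06.

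Most of the listed group of Atf4 and its known targets that are not synthetases were lower in Ezh2fl/null retina. Of 29 genes listed, 28 were tested (Cebpb was not), and 19 were lower and 0 higher, a share of 67.9% lower against 3.46% of all genes. The median log2 fold change was -0.38, and 21 of the 28 lay below in every Ezh2fl/null library, against 6.21% of all genes. This list too was chosen with earlier results of these data known. Atf4 itself had 138, 140, 145 and 139 CPM in Ezh2fl/null and 158, 159, 147 and 167 CPM in Ezh2fl/+ libraries. The groups were apart by a narrow margin at replicate 3, and the log2 fold change of -0.17 (SE 0.05; adjusted p = 0.0238, edgeR) was of the size seen in the synthetases. Its call was lost without Ezh2fl/null replicate 1 (-0.16, adjusted p = 0.0575), Ezh2fl/+ replicate 2 (-0.17, adjusted p = 0.0608) or Ezh2fl/+ replicate 4 (-0.14, adjusted p = 0.102). It was also lost in the 6 male libraries (-0.19, adjusted p = 0.0688) and with total library sizes (-0.15, adjusted p = 0.172). Embryo sex as a covariate, which compares the same male libraries, gave -0.19 (adjusted p = 0.0654, edgeR).

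The 4 genes of that list with the smallest p make or carry amino acids. Asns, which makes asparagine, had 51.8, 51.4, 51.8 and 50.9 CPM in Ezh2fl/null libraries, against 69.3, 79.8, 72.3 and 71.9 CPM in Ezh2fl/+ libraries (log2 -0.51, adjusted p = 1.89e-05, edgeR). Slc7a5, a carrier of large neutral amino acids, had 35.8, 28.8, 37.3 and 41.3 CPM in Ezh2fl/null libraries, against 64.5, 68.1, 61.4 and 64.0 CPM in Ezh2fl/+ libraries (log2 -0.85, adjusted p = 1.05e-05, edgeR). Slc7a11, the cystine carrier, averaged 5.33 ± 0.34 CPM in Ezh2fl/null and 10.7 ± 1.01 CPM in Ezh2fl/+ libraries (log2 -0.999), and Cth, which makes cysteine from cystathionine, 14.5 ± 1.36 CPM and 22.8 ± 0.73 CPM (log2 -0.65). In all 4 the groups were well apart. Asns, Slc7a11 and 7 others of the 25 listed genes with a promoter entry held TGATGNAA (36.0%). Of the 7 others, Chac1, Trib3, Pycr1 and Herpud1 were called lower. Atf3 (log2 -0.10), Vldlr (-0.14) and Nupr1 (0.39) were not called. The stretches of Asns (chr6:7693214-7693243, GRCm38.p6, minus strand) and Slc7a11 (chr3:50443661-50443690, minus strand) are shown to set the synthetase sites beside those of 2 more strongly lowered genes. A second Slc7a11 match, TTGCATCA, is not shown.
Asns site: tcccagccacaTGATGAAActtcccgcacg
Slc7a11 site: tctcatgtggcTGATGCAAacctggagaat
Slc7a11 carries TGATGCAA, the letters also found in Yars, and Asns carries TGATGAAA, the reverse complement of the TTTCATCA of Gars.

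**Figure D5:**
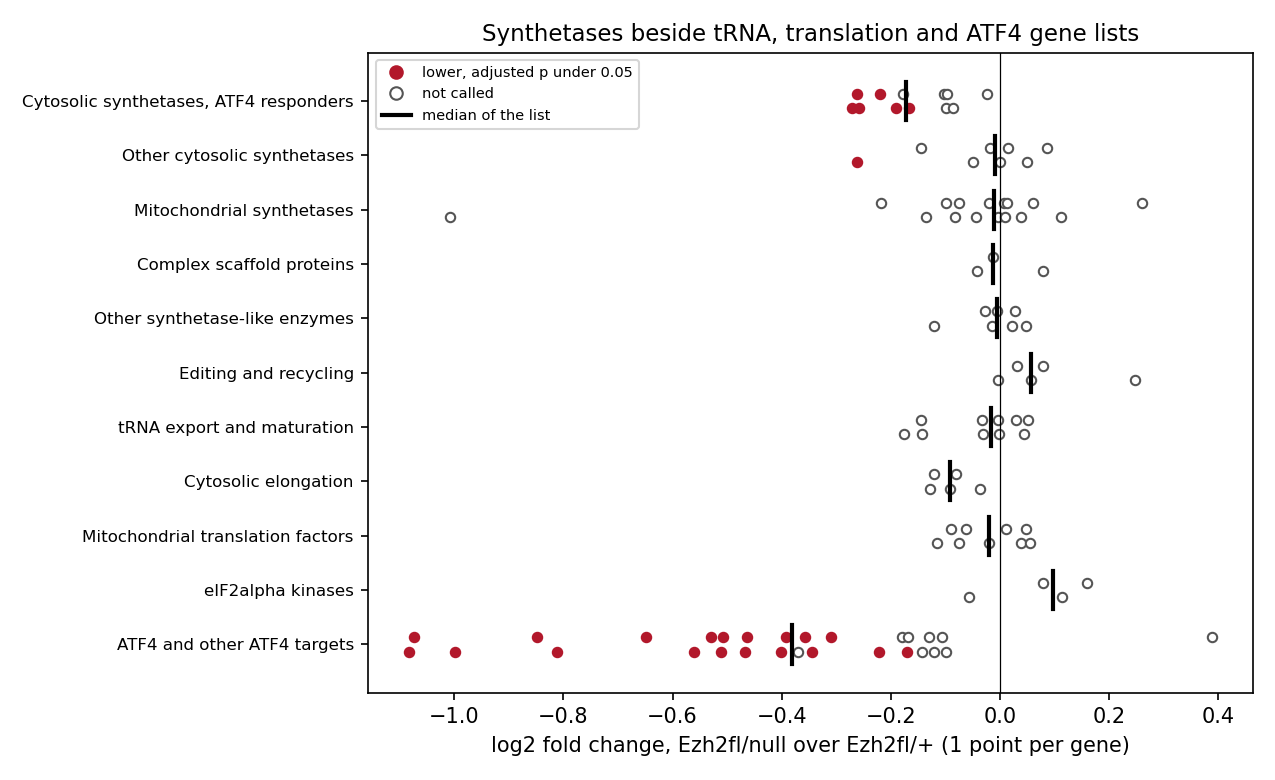
Log2 fold change of each gene, Ezh2fl/null over Ezh2fl/+, by list (4 libraries a group; edgeR), with called genes in red and the list median as a black bar. The ATF4 responders among cytosolic synthetases have a median of -0.17 and the other ATF4 targets of -0.38, while the other synthetase lists lie at -0.01.

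The number of cytosolic calls depended on single libraries and on scaling more than their direction did. Without Ezh2fl/+ replicate 4 the count fell to 4 of the 7, and with total library sizes in place of normalized ones to 3, while no called member changed sign in any of the 17 alternatives. Iars, Mars and Yars kept their calls in 17 of 17 alternatives, Nars in 16, Aars in 13, Cars in 12 and Vars in 7.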

How the data were processed

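The deposited table gives, for 8 libraries, whole-number counts per gene, which the authors left unnormalized. It also gives FPKM made by the authors, a log2 ratio of the groups from the authors' comparison and, per the deposited column, an adjusted p written as a score on an unnamed scale, which was not used. The submitters' processing notes name Novoalign 2.08.01, the mm10 build and DESeq2. The sources used here do not give the counter, annotation or strand setting.

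Counts were tested with edgeR 4.0.16 (R 4.3.3), using TMM, filterByExpr (minimum count 10), glmQLFit and glmQLFTest over 15014 genes, 4 against 4 libraries, with no covariate and Benjamini-Hochberg adjustment; 1082 genes were left out by the filter. CPM divide by normalized library sizes; a count of 3 is 0.163 to 0.214 CPM. FPKM were used to compare levels between genes. Alternatives included DESeq2 1.42.0, other scalings, no filter, the replicate number as a block, embryo sex and mitochondrial rRNA share as covariates, male libraries alone, and each library left out. Libraries of a group differed by 4.68 to 24.0 chi-square units per degree of freedom, so none repeats another. The procedure was tested on simulated data.

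Members and lists were chosen with earlier results of these data known. Each member is named once with its log2 fold change; values per library are given for called members, for the 6 mitochondrial members of smallest p, and up to 4 genes of each other list are named by smallest p, with Atf4 and Ezh2. Overlaps of genes came from GENCODE M21 (mm10), promoters from RefSeq (GRCm38.p6), and transcript matches from BLASTN 2.17.0. Protein identity within pairs, which had been planned, was not analysed here. Certain genes of these lists are not reported here.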

Additional observations from a re-analysis of the deposited data

Results flagged for a closer look

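In 7 of 76 groups of 4 libraries, each a gene or a summed list in 1 genotype, the highest or lowest library lay apart from the other 3 by Dixon's test at the 95% level; chance gives about 3.8 such groups. In Ezh2fl/null, Aars stood at 202 CPM in replicate 1 (216 to 219 CPM in the other 3) and Eprs at 385 CPM in replicate 2 (338 to 343 CPM). Qars stood at 87.2 CPM in replicate 2 (99.0 to 100.04 CPM), Mars2 at 11.9 CPM in replicate 2 (10.4 to 10.5 CPM) and Fars2 at 15.1 CPM in replicate 4 (17.3 to 17.7 CPM). In Ezh2fl/+, Nars stood at 207 CPM in replicate 2 (196 to 197 CPM) and Farsa at 58.3 CPM in replicate 2 (50.8 to 51.8 CPM). The Aars call was lost without Ezh2fl/null replicate 1 (log2 -0.14, adjusted p = 0.0652, edgeR).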

How the results depend on the processing

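The cytosolic count of 7 lower calls was 3 with total library sizes (ATF4 responders 3, other cytosolic genes 0), a scaling that put the median log2 fold change of mitochondrial synthetases at 0.0108 in place of -0.0110 and made 82.5% of all calls higher in place of 70.7%. It was 4 in male libraries alone, where the other cytosolic genes had 0, the mitochondrial genes 1 lower call (Lars2) and a median of -0.0520. Embryo sex as a covariate gave 0, 1 and -0.0518 for the same 3 results. Both settings compare the genotypes through the same male libraries, because no Ezh2fl/+ library was female. With the replicate number as a block the cytosolic count was 7 and the mitochondrial count 1 (Lars2, log2 -1.11, adjusted p = 0.00459, edgeR), and no other member's call changed; same-numbered libraries had correlations of deviations of 0.24, -0.06, -0.01 and 0.20, so the numbers are not shown to pair samples, and each Ezh2fl/null library correlated best with Ezh2fl/+ replicate 1, 4, 2 and 4 in turn. With each library left out, cytosolic lower calls ran from 4 to 7, responders from 4 to 7, other cytosolic genes from 0 to 1, mitochondrial lower calls from 0 to 1 and higher calls from 0 to 1 (Nars2). Lower calls in the ATF4 list ran from 13 to 20 over the 17 alternatives. The ratio of summed mitochondrial FPKM was 1.01 without Lars2 in place of 0.666. The cytosolic median log2 fold change stayed between -0.12 and -0.08. The causes were not tested. Of the members' values under alternatives, 585 kept their side of the threshold, 20 lost a call and 7 gained one. A change of sign was counted only where a fit made a call, and there were 0 of these. Uncalled members did change sign, such as Farsa, which ran from -0.01 to 0.10. Depth limits the mitochondrial genes most, and the lists share genes and samples.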
